A study of Mus musculus with 4 samples.

Results

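Genes of the core splicing machinery and its best known regulators were followed by RNA-seq in normal mouse prostate and in prostate tumours of the TRAMP model. The genes were chosen by name, as every gene whose symbol begins with Hnrnp, with Srsf and a number, with Sf3a or Sf3b and a number, or with Snrp. The choice gave 52 of the 24319 gene names in the tables, namely 20 hnRNP genes, 11 SR protein genes, 9 SF3 genes and 12 Sm and other Snrp genes. The groups were 2 normal prostates (genotype WT, age 22 weeks) and 2 TRAMP tumours, all from F1 males of C57BL/6 and FVB parents. Tumour mice were heterozygous for an SV40 T antigen transgene (TRAMP SV40 Tag) behind the rat probasin promoter, which is active in prostate epithelium. Tumour age is labelled as 24 weeks, and the protocols give 24 to 28 weeks. Tissue was dissected and frozen as bulk pieces, and no label states that each tumour is from its own mouse. The p-values therefore measure the spread between these samples, which may be technical.

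The spliceosome removes introns from pre-mRNA. Its building blocks are small nuclear ribonucleoproteins (snRNPs), in which a ring of Sm proteins, encoded by genes such as Snrpb, Snrpd1 and Snrpe, encircles each small nuclear RNA. The SF3a and SF3b complexes belong to the U2 snRNP and hold it on the branch point of the intron. SR proteins, with an RNA recognition motif and a tail rich in arginine and serine, mostly favour use of the exons they bind, while hnRNP proteins coat nascent RNA and often oppose them. Many SR and hnRNP genes limit their own output by splicing a so-called poison exon into their mRNA, which sends it to nonsense-mediated decay.

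Values below are FPKM, fragments per length of transcript and per depth of library, divided by a factor per library that sets the median gene equal (scaled FPKM). Because FPKM are per length, levels of different genes can be set side by side, though at the same level a short transcript rests on fewer fragments and is less certain. All 52 genes reached the limit for testing, an FPKM of 1 or more, before scaling, in 2 or more libraries. Srsf12 reached it only through the 2 tumours. The libraries held an implied 986717 to 1580686 fragments. The deposited tables hold no counts, so this number was worked out from the confidence interval of each value.

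Markers of cell types differed widely between the groups and between the 2 tumours. The summed scaled FPKM of 7 luminal epithelial markers was 1562 and 1927 in the normal prostates, 21.3 in tumour 1 and 1074 in tumour 2. Cdh1, Cldn4 and Spdef were listed at 0 in tumour 1 but in no other library. The sum of 7 smooth muscle markers was 643 and 596 in the normal prostates, against 23.2 and 123 in the tumours. In the test described below, only 1 of the 7 luminal and 1 of the 7 smooth muscle markers were called lower (background 8.27%). All 9 cycling-cell markers rose, with sums of 43.5 and 42.2 against 1379 in tumour 1 and 701 in tumour 2. Of 8 neuroendocrine markers 7 rose, with sums of 5.94 and 3.87 against 541 and 781. As many as 7 of these 8, and 2 of the 9 cycling-cell markers, reached the limit for testing only through the tumours. The 7 fibroblast markers summed to 123 and 99.0 against 55.3 and 403 and the macrophage markers to 19.1 and 13.4 against 75.3 and 310. The 4 basal markers summed to 72.8 and 71.1 against 0 and 24.6, and 1 of the 3 tested was called lower. The sums of endothelial and of T and B cell markers were at most 38.5. The part of these differences in the results below was not tested. In bulk tissue, fewer cells of a type and less RNA per cell cannot be told apart.

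Of the 52 splicing genes, 6 rose in the tumours, 1 fell and 45 did not pass the test, which was limma with Benjamini-Hochberg adjustment over 13162 genes at a threshold of 0.05. The genes that rose were Hnrnpul1, Hnrnpab, Srsf1, Srsf12, Sf3a1 and Snrpb, and the gene that fell was Srsf5. Over all genes tested, 9.85% were called higher and 8.27% lower, or 18.1% in either direction, against 11.5% higher and 1.92% lower of the splicing genes. With this scaling the share called higher was thus near the background. Srsf12 was bound to differ, since it reached the limit for testing only through the tumours, and without it 5 of 51 were called higher. The median log2 fold change of the splicing genes was 0.59, against 0.07 over all genes tested, and 0.55 without Srsf12, which is listed at 0 in both normal prostates. Both tumours lay above both normal prostates in 26 of the 52 genes and below them in 6. Among all genes tested the shares were 37.7% above and 33.3% below, against 50% and 11.5% here. Leaving out Srsf12, the log2 fold change ran from -1.36 to 1.84, and it was under 1 in either direction in 36 of the 52 genes (69.2%), compared with 52.2% of all genes tested. That order turned with FPKM as deposited (28.8% against 42.9%) and when scaled to the FPKM sum (38.5% against 47.3%). Under quantile normalization it held, at 57.7% against 53.9%.

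These counts depend on the scaling and on single libraries. With FPKM as deposited 29 splicing genes (55.8%) were higher and 0 lower, against 28% and 3.24% of all genes tested. The median of all genes moved to 0.86. Scaling to the FPKM sum gave 18 higher (34.6%) and 0 lower, against 19.3% and 4.21% of all genes. Quantile normalization gave 8 (15.4%) and 0, against 6.88% and 6.13%. A pseudocount of 0.1 gave 5 (9.62%) and 1 (1.92%), against 9.92% and 6.18%. A model with no intensity trend gave 3 (5.77%) and 0, against 9.19% and 6.4%. With no filter on low values limma gave 0 and 0, against 1.44% and 1.46%. At an unadjusted p under 0.05 the main analysis had 15 higher and 2 lower (28.8% and 3.85%), against 21.5% and 18.3% of all genes tested. Without normal 1 or without normal 2, limma called 0 of all genes tested, while 9 and 7 splicing genes (17.3% and 13.5%) had an unadjusted p under 0.05, against 19.1% and 18.4% of all genes. Without tumour 1 it called 12 higher and 5 lower (11.6% and 20% of all genes), and without tumour 2 it called 28 and 2 (19.7% and 30.8%). The tumour that is then left alone is taken to have the spread of the normal pair. Of the 7 genes called, 6 were called in the same direction without tumour 1 and again without tumour 2, and Srsf12 could then no longer be tested.

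**Figure D1:**
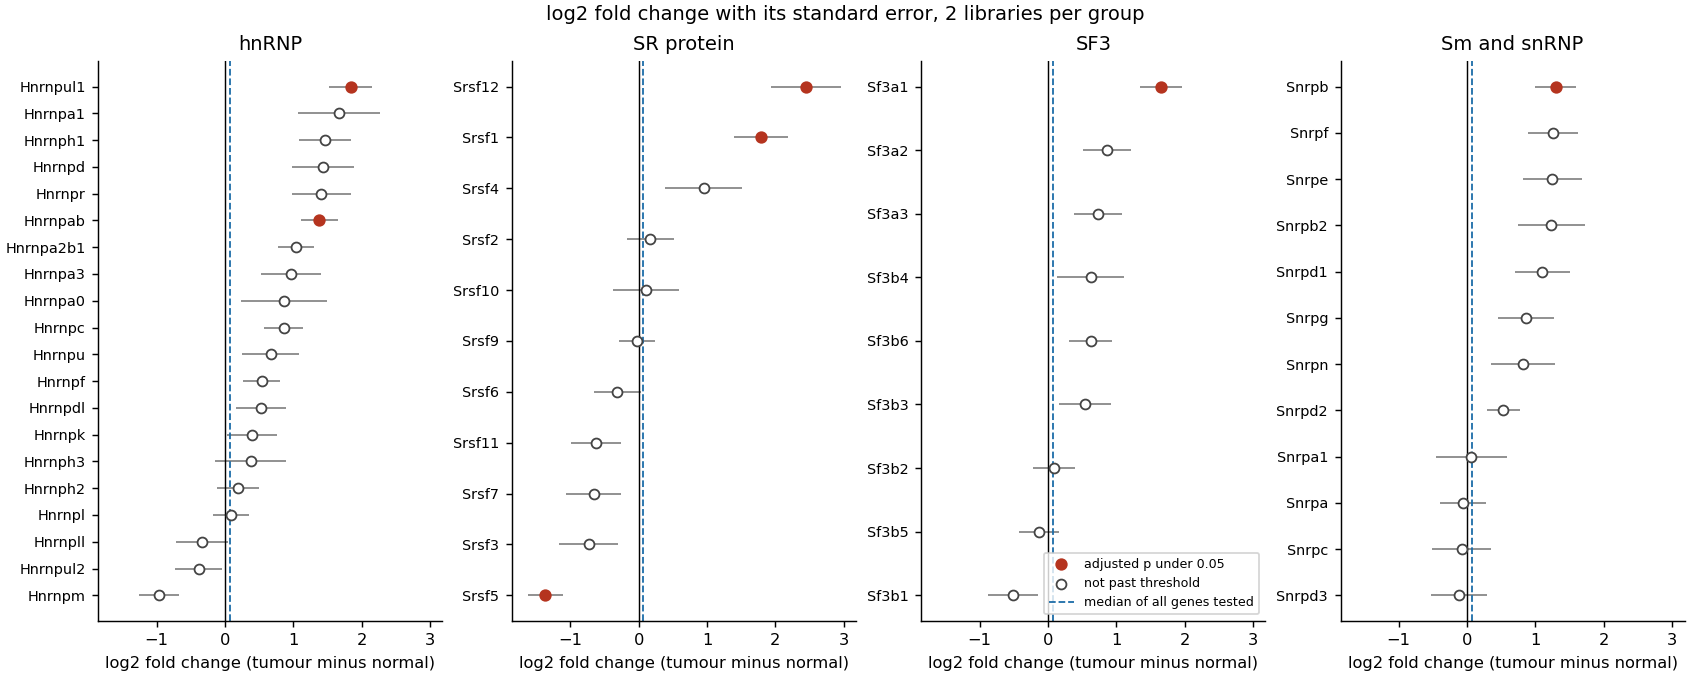
log2 fold change of the 52 splicing genes, tumour minus normal on the log2(scaled FPKM + 1) scale, with bars of 1 standard error (2 libraries in each group). Filled points passed the threshold; the dashed line is the median of all genes tested (0.07), and the position of Srsf12 depends on the pseudocount because it is listed at 0 in both normal prostates. Most hnRNP and Sm genes lie right of the line, and 6 of 11 SR protein genes lie left of 0, a number that is 1 with FPKM as deposited and 4 under quantile normalization.

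The bases before the start of 4 of these genes are shown, namely 3 of the 6 genes that rose and the 1 that fell. Those of Srsf12, Sf3a1 and Snrpb, which also rose, are not shown. They come from RefSeq (GRCm38.p6), as the 250 bases before the annotated start, 5′ to 3′ on the gene's strand. Capitals mark matches, on either strand, to 3 sets of letters. The E2F-type letters are TTTCCCGC, TTTGCCGC, TTTCGCGC and TTTGGCGC, recognised by the E2F factors that RB proteins hold in check. The CCAAT box is CCAAT, bound by NF-Y, and the ETS-type letters are CCGGAAG. No letters of one set overlap those of another in these 4 windows. The windows are Srsf1 at chr11:88047123-88047372 (+ strand), Hnrnpul1 at chr7:25754760-25755009 (- strand), Hnrnpab at chr11:51606882-51607131 (- strand) and Srsf5 at chr12:80945249-80945498 (+ strand).
Srsf1: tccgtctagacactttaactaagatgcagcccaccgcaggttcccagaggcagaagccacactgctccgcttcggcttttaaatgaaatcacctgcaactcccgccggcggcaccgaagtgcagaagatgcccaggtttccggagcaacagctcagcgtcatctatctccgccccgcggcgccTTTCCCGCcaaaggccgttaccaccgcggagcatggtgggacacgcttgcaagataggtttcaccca
Hnrnpul1: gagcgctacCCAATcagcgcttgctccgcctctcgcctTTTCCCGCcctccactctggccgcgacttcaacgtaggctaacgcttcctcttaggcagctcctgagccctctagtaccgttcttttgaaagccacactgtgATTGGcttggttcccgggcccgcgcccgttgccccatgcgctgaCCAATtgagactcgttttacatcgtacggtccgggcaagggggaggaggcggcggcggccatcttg
Hnrnpab: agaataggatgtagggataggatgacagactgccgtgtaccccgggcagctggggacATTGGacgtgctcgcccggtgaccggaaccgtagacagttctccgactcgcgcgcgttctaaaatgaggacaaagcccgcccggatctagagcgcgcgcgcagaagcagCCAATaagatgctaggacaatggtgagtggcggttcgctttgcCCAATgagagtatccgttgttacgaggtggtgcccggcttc
Srsf5: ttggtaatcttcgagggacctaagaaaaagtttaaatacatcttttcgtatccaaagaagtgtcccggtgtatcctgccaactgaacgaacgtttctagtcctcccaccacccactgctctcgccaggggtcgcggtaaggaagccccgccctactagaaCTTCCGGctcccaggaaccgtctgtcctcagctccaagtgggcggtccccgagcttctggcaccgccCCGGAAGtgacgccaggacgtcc

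The Srsf1 window holds 1 E2F-type match, whose first base lies at -67 from the start, and the Hnrnpul1 window holds 1 at -212. Hnrnpul1 and Hnrnpab have 3 CCAAT matches each, and Srsf5 has 2 ETS-type matches, at -90 and -23. RefSeq windows were listed for 46 of the 52 genes. E2F-type letters occurred in the windows of 5 of the 46 (10.9%), Hnrnpr, Hnrnpul1, Snrpa, Srsf1 and Srsf10, compared with 3.95% of 9935 genes tested that have a window and 1.86% of all 32851 windows of that length. Of these 5 genes 2 rose and 3 did not pass (background 9.85% called higher), and the 2 that rose are both among the windows shown. ETS-type letters occurred in 15 of the 46 genes (32.6%), 6 of them SF3 genes, compared with 15.4% of those tested genes and 6.91% of all windows. Sf3a1, which rose, and Srsf5, which fell, were among these 15 (background 9.85% called higher and 8.27% lower). A CCAAT box was found in 22 of the 46 genes (47.8%), compared with 40.7% and 33.8%. The windows of the splicing genes had a median GC content of 60.8%, against 52.4% over all windows, so base composition differs too. A match describes letters and not a bound site.

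Among hnRNP genes 2 of 20 rose, 0 fell and 18 did not pass (background 9.85% and 8.27%). A positive log2 fold change was found in 17 of them, and in 6843 of the 13162 genes tested. The family median was 0.76, and it was 1.69 with FPKM as deposited. Hnrnpul1 (chromosome 7, 25722039 to 25754720), which binds RNA and takes part in the response to DNA breaks, lay at 16.0 and 15.2 scaled FPKM in normal tissue and at 69.3 and 49.2 in the tumours. The tumours lay well apart from the normal pair, which differed little. The rise was 3.58-fold (log2 fold change 1.84, SE 0.31, limma adjusted p = 0.0289), and the adjusted p ran from 0.000102 to 0.215 over the alternatives. Hnrnpab (chromosome 11, 51600100 to 51606881), an hnRNP of the A/B type that is also known for binding single-stranded DNA, lay at 90.1 and 83.5 against 267 and 193. Its rise was 2.60-fold (1.38, SE 0.27, limma adjusted p = 0.0363, with 0.00016 to 0.246 over the alternatives), and the call was lost with no intensity trend and with no filter. Hnrnpab overlaps Phykpl on the opposite strand, and the sources used here do not say whether counting used strand.

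The hnRNP genes with the highest mean over the 4 libraries were Hnrnph1 and Hnrnpa2b1, and neither passed. In the normal prostates Hnrnpm and Hnrnpl lay above both. Hnrnph1 (chromosome 11, 50377719 to 50386528), which binds runs of G, lay at 105 and 76.8 in normal tissue and at 333 and 185 in the tumours (log2 difference 1.46, SE 0.38, limma adjusted p = 0.0586). Hnrnpa2b1 (chromosome 6, 51460435 to 51469894), a packaging hnRNP that also takes part in RNA transport, lay at 110 and 100.2 against 253 and 187 (1.04, SE 0.27, limma adjusted p = 0.0567). In both genes the groups did not overlap, with the tumours above, as in 37.7% of all genes tested. Both genes were past the threshold with FPKM as deposited. Hnrnpa1 (chromosome 15, 103240397 to 103246698), which opposes SR proteins at many exons, lay at 26.3 and 39.4 against 183 and 59.2. Tumour 1 was 3.1 times tumour 2, and the gene did not pass (1.66, SE 0.60, limma adjusted p = 0.111). Hnrnpa1 has many near-identical processed copies in the genome, so its level is uncertain. Hnrnpk, a poly-C binding protein (chromosome 13, 58391132 to 58403343), lay at 84.4 and 95.5 against 161 and 87.1, with overlapping groups (0.40, SE 0.37, limma adjusted p = 0.458).

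Hnrnpm (chromosome 17, 33646233 to 33685458), known for regulating splicing in epithelial-to-mesenchymal change, was the hnRNP gene with the lowest log2 fold change. It lay at 156 and 163 in normal tissue and at 99.6 and 66.2 in the tumours (-0.96, SE 0.30, limma adjusted p = 0.0804), and at -0.03 with FPKM as deposited. Without tumour 1 and without tumour 2 it passed, at -1.18 and -0.65. As a share of the summed FPKM of the 20 hnRNP genes, which does not depend on scaling between libraries, Hnrnpm made up 13.4 and 14.5% in the normal prostates, against 4.14 and 4.45% in the tumours. It was the largest share of the 20 in both normal prostates. In the tumours the largest shares were those of Hnrnph1 in tumour 1 (13.8%) and Hnrnpab in tumour 2 (12.97%). Summed over the family, hnRNP transcripts held 1161 and 1122 scaled FPKM in the normal prostates, 2407 in tumour 1 and 1488 in tumour 2. With FPKM as deposited the sums were 921 and 772 against 3234 and 2237.

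The other hnRNP genes did not pass. Hnrnpc, which guards against splicing of uridine-rich sites, lay at 55.8 and 54.2 against 118 and 85.6. Hnrnpd, also called AUF1, which binds AU-rich mRNA, lay at 6.67 and 5.48 against 25.3 and 12.9, and Hnrnpr lay at 6.52 and 5.77 against 24.5 and 13.2. Hnrnpa3, Hnrnpu and Hnrnpf also had both tumours above both normal prostates, as did 37.7% of all genes tested. Hnrnpul2 had both below, at 22.9 and 23.4 against 14.3 and 21.5. Hnrnpa0, Hnrnpdl, Hnrnph2, Hnrnph3, Hnrnpl and Hnrnpll overlapped between the groups. Hnrnpl, which binds CA repeats, was the steadiest of these, at 117 and 119 against 143 and 110.

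**Figure D2:**
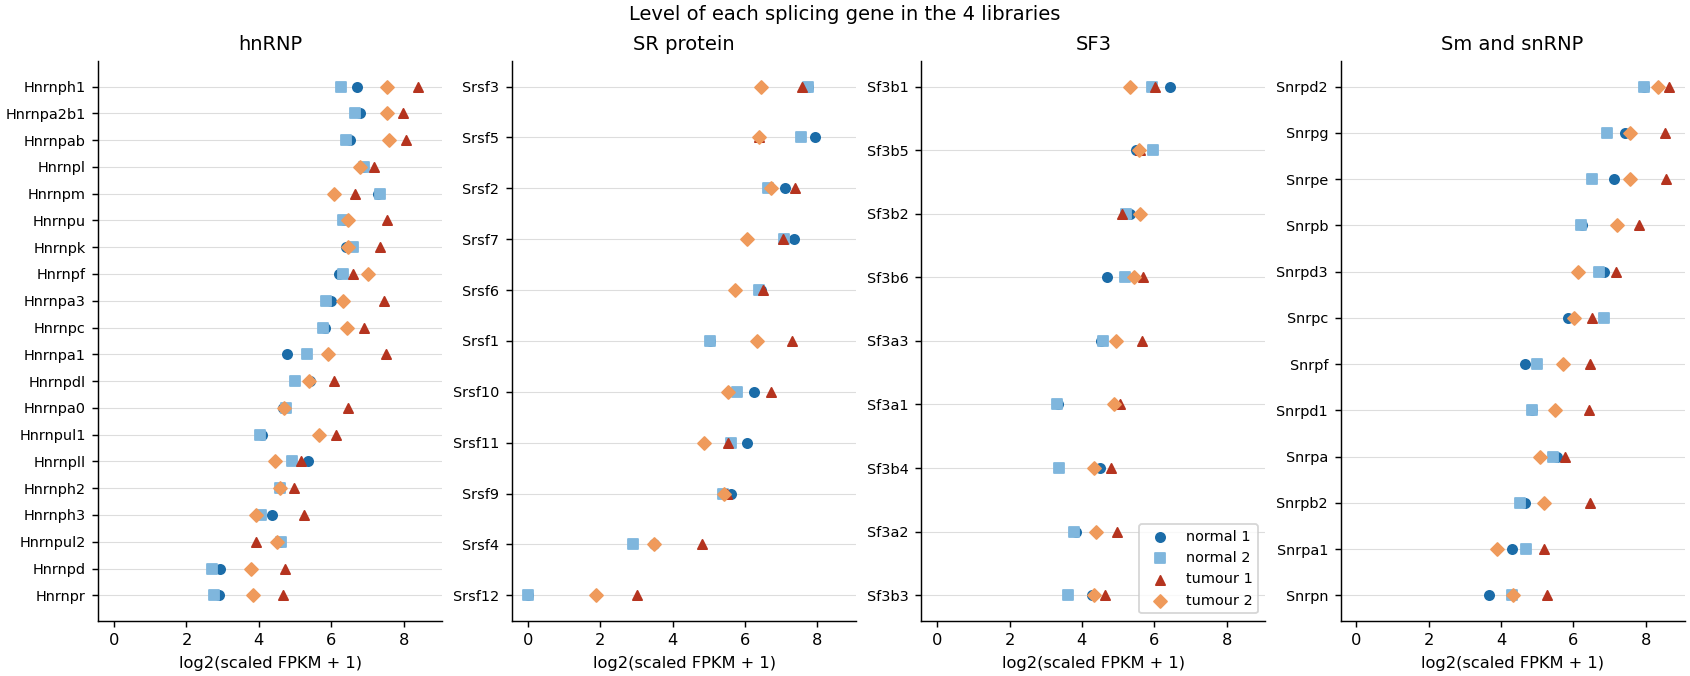
Level of the 52 splicing genes in the 4 libraries, as log2(scaled FPKM + 1), 1 panel per family, genes ordered by mean level. Circles and squares are normal 1 and normal 2 (at 0 together for Srsf12), triangles and diamonds tumour 1 and tumour 2; the triangles lie right of the diamonds in 48 of the 52 genes.

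Of the SR protein genes 2 of 11 were called higher, Srsf12 among them, 1 was called lower and 8 did not pass (background 9.85% and 8.27%), with a median log2 fold change of -0.02 that was 0.90 with FPKM as deposited and 0.30 under quantile normalization. Srsf1 (chromosome 11, 88047373 to 88053757), the founding SR protein SF2/ASF and a known oncogene in mice and humans, lay at 31.8 and 31.7 scaled FPKM in normal tissue and at 156 and 80.3 in the tumours. The normal pair was almost equal and both tumours were far above it. The rise was 3.46-fold (log2 fold change 1.79, SE 0.39, limma adjusted p = 0.0431, with 2.2e-05 to 0.228 over the alternatives). The call was lost with no filter on low values and with no intensity trend. Behind Srsf1 stood 169.5 and 228.2 implied fragments in normal tissue, against 1331.4 and 725.1 in the tumours. Without tumour 1 the log2 fold change was 1.39 and without tumour 2 it was 2.28. Srsf1 overlaps Gm11508 on the opposite strand, and the sources used here do not say whether counting used strand. The promoter letters of Srsf1 and Srsf5 are those shown above.

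Srsf5 (chromosome 12, 80945504 to 80950507), an SR protein known from human and rodent cells to change with growth signals, fell. It lay at 245 and 187 in normal tissue and at 82.3 and 82.9 in the tumours, so the tumours were nearly equal and well below both. The log2 fold change was -1.36 (SE 0.26, limma adjusted p = 0.0341), a fall to 82.3 and 82.9 that rested on 251.2 and 218.4 implied fragments. With FPKM as deposited it was -0.43 (limma adjusted p = 0.313, the highest over the alternatives), with quantile normalization -0.82 (limma adjusted p = 0.115), and neither passed. The call was also lost when scaled to the FPKM sum, with no filter on low values and with no intensity trend. Of the alternatives run on all 4 libraries, only a pseudocount of 0.1 kept it. The sign stayed negative under each alternative run. Srsf12 (chromosome 4, 33208991 to 33233340), a member that in human cells opposes other SR proteins, had a value of 0 in normal tissue and reached 7.09 and 2.66 in the tumours (limma adjusted p = 0.0398). Because it was testable only through the group where it is high, that p is given as a description. The call was lost under quantile normalization (adjusted p = 0.0779) and with no filter on low values (0.0726), and the adjusted p ran from 0.0248 to 0.237 over the alternatives. The tumour values rested on 46.7 and 14.7 implied fragments.

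Srsf3 (chromosome 17, 29032660 to 29043372), the smallest SR protein and also an export adaptor, had the highest mean of the SR genes over the 4 libraries, though Srsf5 was above it in normal 1 and Srsf2 in tumour 2. It lay at 212 and 214 in normal tissue and at 190 and 86.0 in the tumours (log2 difference -0.73, SE 0.43, limma adjusted p = 0.257). Tumour 1 was close to the normal pair and tumour 2 was far below it. Srsf7, a close relative of Srsf3, lay at 164 and 133 against 132 and 66.0, and Srsf11 at 65.3 and 47.7 against 45.4 and 28.3. In Srsf3, Srsf7 and Srsf11 both tumours were below both normal prostates, as in 33.3% of all genes tested. None of them passed, and the sign turned with FPKM as deposited (0.21, 0.28 and 0.30). Srsf2 (chromosome 11, 116849897 to 116853094), also called SC35 and mutated in human myeloid disease, overlapped between the groups at 137 and 99.3 against 165 and 105 (0.17, SE 0.34, limma adjusted p = 0.730). It overlaps Mettl23 and Mfsd11 on the opposite strand. Srsf4, Srsf6, Srsf9 and Srsf10 overlapped as well. Srsf9 stayed between 40.7 and 48.0 in all 4 libraries, and Srsf4 lay at 10.2 and 6.45 against 26.9 and 10.2.

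The make-up of the SR family differed between the groups whatever the scaling between libraries. Srsf1 made up 2.95 and 3.54% of summed SR FPKM in the normal prostates, against 14.98 and 13.4% in the tumours. Srsf5 made up 22.8 and 20.9% in the normal prostates, 7.90% in tumour 1 and 13.8% in tumour 2. Shares of one sum are tied to each other, so a lower share of one gene may come from a higher share of another. The ratio of Srsf1 to Srsf5, computed from their FPKM, was 0.129 and 0.170 in the normal prostates, against 1.90 and 0.969 in the tumours. Summed over the family, SR transcripts held 1075 and 895 scaled FPKM in the normal prostates, 1042 in tumour 1 and 599.6 in tumour 2. With FPKM as deposited the sums were 853 and 616 against 1400 and 901, so their order depended on the scaling.

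**Figure D3:**
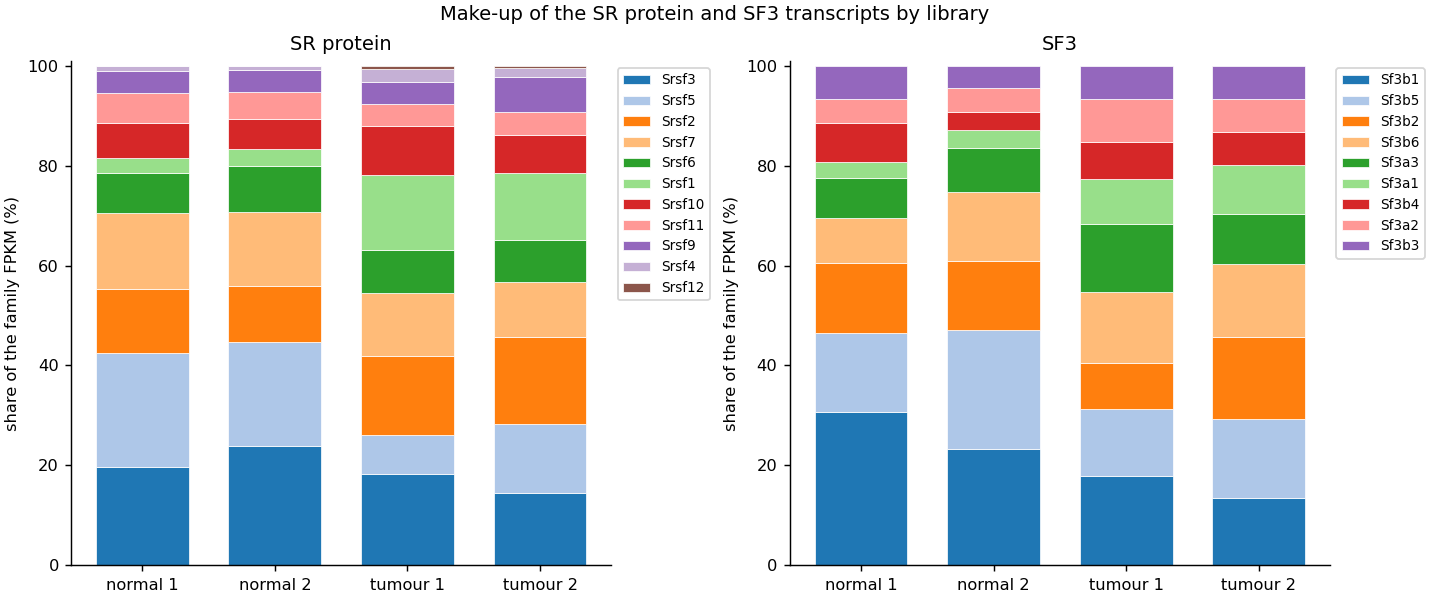
Share of each gene in the summed FPKM of the SR protein genes (left) and of the SF3 genes (right), in percent, 1 bar per library. Srsf1 takes 2.95 and 3.54% of the SR bar in the normal prostates, against 14.98 and 13.4% in the tumours, and Sf3a1 takes 3.27 and 3.46% of the SF3 bar against 9.01 and 9.83%.

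Of 9 SF3 genes 1 rose, 0 fell and 8 did not pass (background 9.85% and 8.27%). The median log2 fold change was 0.62, and 1.51 with FPKM as deposited. The gene that rose was Sf3a1 (chromosome 11, 4160354 to 4182541), the largest subunit of SF3a, which binds the U1 snRNP as well. It lay at 9.09 and 8.96 in normal tissue and at 32.4 and 28.8 in the tumours, with little spread inside either group. The rise was 3.15-fold (log2 fold change 1.66, SE 0.31, limma adjusted p = 0.0330, with 0.000867 to 0.252 over the alternatives). The other SF3a subunits, Sf3a2 (13.3 and 12.8 against 30.6 and 19.8) and Sf3a3 (22.1 and 23.2 against 49.2 and 29.6), had both tumours above both normal prostates and did not pass. Among all genes tested 37.7% had both tumours above.

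Sf3b1 (chromosome 1, 54985170 to 55027478), the branch point scaffold that is often mutated in human blood cancers, had the highest mean of the SF3 genes over the 4 libraries, though not in normal 2 or tumour 2, and had the lowest log2 fold change of the 9. It lay at 85.4 and 60.3 in normal tissue and at 64.2 and 39.2 in the tumours (-0.51, SE 0.37, limma adjusted p = 0.346), and at 0.42 with FPKM as deposited. Sf3b1 made up 30.7 and 23.3% of SF3 FPKM in the normal prostates, against 17.8 and 13.4% in the tumours. Sf3b5 (chromosome 10, 13008450 to 13009183), a small subunit of SF3b, lay at 43.7 and 61.6 against 48.1 and 46.6 (-0.13, SE 0.29, limma adjusted p = 0.764). Sf3b2 lay between 33.5 and 48.1 in all 4 libraries. Sf3b3 and Sf3b6 had both tumours above both normal prostates (37.7% of all genes tested), and Sf3b4 overlapped. The normal pair itself differed more in SF3 genes than in the other families, with a median absolute log2 difference of 0.48 against 0.15 over all 52 genes.

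Of 12 Sm and other Snrp genes 1 rose, 0 fell and 11 did not pass (background 9.85% and 8.27%). The median log2 fold change was 0.84, and 1.76 with FPKM as deposited. Snrpb (chromosome 2, 130171636 to 130179364), which encodes the Sm proteins B and B′, lay at 74.95 and 72.3 in normal tissue and at 225 and 147 in the tumours. The rise was 2.45-fold (log2 fold change 1.29, SE 0.30, limma adjusted p = 0.0475), close to the threshold, and the call was lost with a pseudocount of 0.1 (adjusted p = 0.0525, over all alternatives 0.000186 to 0.275). The Snrpb call was also lost with no filter on low values and with no intensity trend. Snrpn (chromosome 7, 59982502 to 60140219), the imprinted gene for SmN, which takes the place of SmB in brain, lay at 11.6 and 18.7 against 37.4 and 19.2 (0.82, SE 0.46, limma adjusted p = 0.246). It shares its transcript with Snurf. Snrpn made up 13.4 and 20.6% of the FPKM of Snrpn and Snrpb together in the normal prostates, against 14.3 and 11.5% in the tumours, so the groups overlapped in this share.

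The remaining ring proteins fell into those with non-overlapping groups and those without. Snrpd2 (chromosome 7, 19149838 to 19152726), with the highest mean of the 52 genes, lay at 247 in both normal prostates and at 398 and 321 in the tumours (log2 difference 0.53, SE 0.24, limma adjusted p = 0.166). Snrpg (chromosome 6, 86371540 to 86378902) lay at 170 and 122 against 368 and 188 (0.86, SE 0.41, limma adjusted p = 0.183). Snrpe lay at 138 and 91.2 against 379 and 189, Snrpf at 24.4 and 30.9 against 87.2 and 51.7, and Snrpd1 at 27.8 in both normal prostates against 84.8 and 43.6. The tumours were above the normal prostates in each of these 5 genes, as in 37.7% of all genes tested, and none of the 5 passed. Snrpd3 (chromosome 10, 75518042 to 75535440) did not share this pattern. It lay at 115 and 103 against 145 and 68.9, with the lowest log2 fold change of the 12 genes (-0.12, SE 0.41, limma adjusted p = 0.851, and 0.82 with FPKM as deposited).

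Proteins particular to single snRNPs were mixed. Snrpb2, the U2 protein B″, lay at 24.4 and 22.1 against 87.8 and 35.5, while its U2 partner Snrpa1 overlapped at 18.7 and 24.7 against 35.7 and 13.9. The U1 proteins Snrpa (45.4 and 42.4 against 53.7 and 32.8) and Snrpc (56.7 and 114 against 91.0 and 63.6) overlapped between the groups. Snrpc differed more within the normal pair than between the group means. Summed over the family, these transcripts held 954 and 915 scaled FPKM in the normal prostates, 1992 in tumour 1 and 1174 in tumour 2. With FPKM as deposited the sums were 756 and 630 against 2676 and 1765. Short Sm transcripts such as Snrpe and Snrpg rested on few fragments, with 34.2 to 42.4 implied in the normal prostates.

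The 2 tumours differed from each other in a way shared by nearly all of these genes. Scaled FPKM was higher in tumour 1 than in tumour 2 in 48 of the 52 genes (92.3%), compared with 52.4% of all genes tested. The exceptions were Hnrnpf, Hnrnpul2, Sf3b2 and Srsf5. With FPKM as deposited Sf3b5 (64.6 against 70.0) and Srsf9 (60.1 against 63.4) were also lower in tumour 1. The median difference between tumour 1 and tumour 2 was 0.71 on the log2 scale, against 0.06 over all genes tested. Against the mean of the normal prostates, the median of the splicing genes was 0.87 in tumour 1 and 0.35 in tumour 2. Hnrnpa0, an hnRNP that binds AU-rich mRNA, showed the contrast most plainly, at 24.4 and 26.1 in the normal prostates, 87.5 in tumour 1 and 24.9 in tumour 2. Tumour 1 also had the higher sum of cycling-cell markers (1379 against 701) and the lower sums of luminal (21.3 against 1074), fibroblast (55.3 against 403) and macrophage markers (75.3 against 310). The part of these markers in the difference was not tested, and 1 library of each kind allows no test between the tumours.

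**Figure D4:**
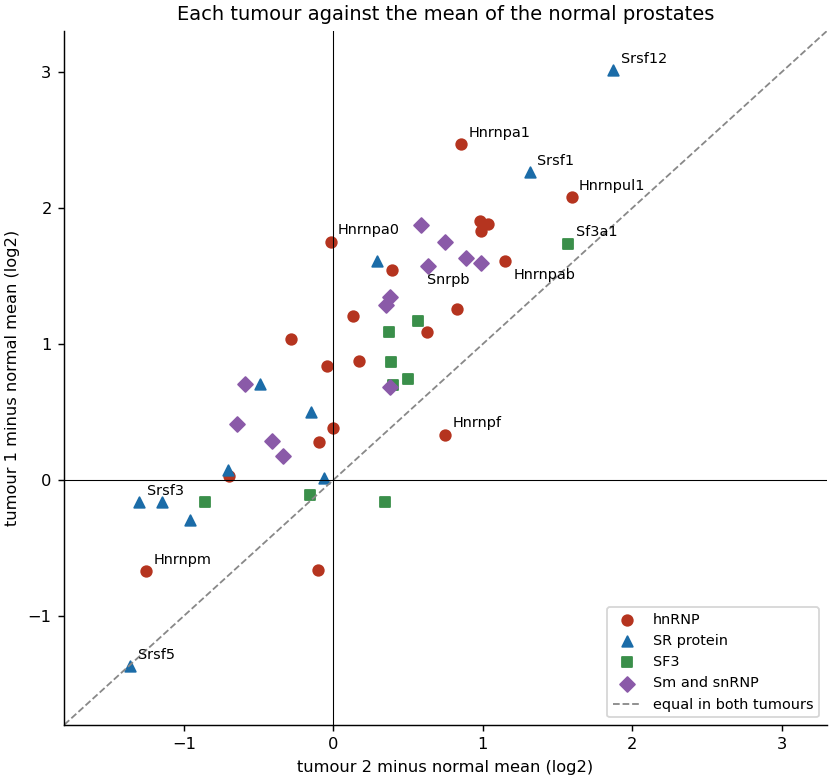
log2 difference of tumour 1 (vertical) and tumour 2 (horizontal) from the mean of the 2 normal prostates, on the log2(scaled FPKM + 1) scale, 1 point per splicing gene. Of the 52 points 48 lie above the dashed line of equal values, and Srsf5 lies on it at -1.37 and -1.36; Srsf12 is measured against normal prostates listed at 0.

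The splicing genes were also set beside all genes under each scaling. The median of the splicing genes exceeded that of all genes tested by 0.52 with the main scaling, by 0.63 with FPKM as deposited, by 0.60 when scaled to the FPKM sum (genes above 1% left out), and by 0.92 under quantile normalization. The number with a positive log2 fold change was 38 of 52 with the main scaling, 50 with FPKM as deposited, 48 when scaled to the FPKM sum and 44 under quantile normalization. Among all genes tested 6843 of 13162 were positive with the main scaling. Their 28th percentile was already above 0 with FPKM as deposited (0.036), as was their 33rd when scaled to the FPKM sum (0.0023). Under quantile normalization their median was 0.0066. The median of the splicing genes was 0.42 without tumour 1 and 0.88 without tumour 2. In the last case it exceeded that of all genes by 1.01.

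**Figure D5:**
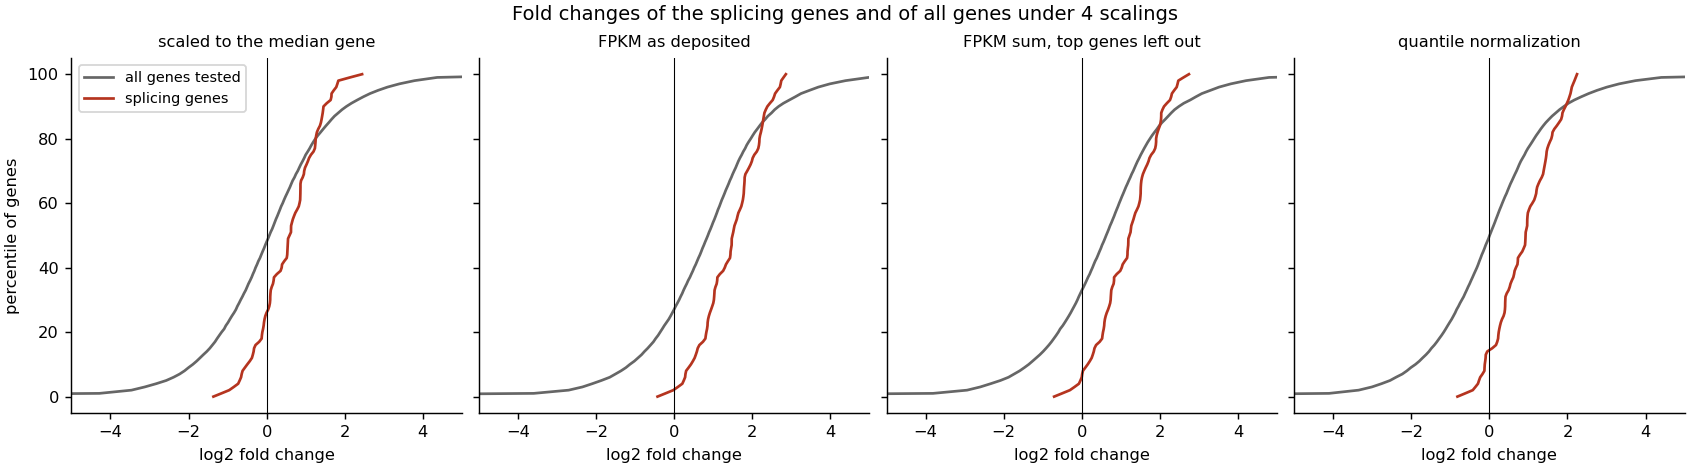
Percentile of log2 fold changes (tumour minus normal) of all genes tested and of the 52 splicing genes under 4 scalings, a vertical line marking 0. The curve of the splicing genes is steeper, and its median lies right of that of all genes by 0.52, 0.63, 0.60 and 0.92, from left to right.

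Other splicing genes, from lists of 8 roles, were counted in the same way. Of 155 genes 151 were tested, of which 9 rose, 5 fell and 137 did not pass. These are 5.96% and 3.31%, below the background shares of 9.85% and 8.27%. With FPKM as deposited 68 were higher and 2 lower (45.03% and 1.32%, against 28% and 3.24% of all genes). The median log2 fold change was 0.41. In the list of other snRNP proteins 6 of 33 rose (18.2%) and 2 fell (6.06%), against 9.85% and 8.27% of all genes tested. Those that rose were Prpf8 and Snrnp200, the core and the helicase of the U5 snRNP, Eftud2, its GTPase, Dhx15, a helicase that takes spliceosomes apart, Luc7l3, a U1-associated protein, and Snrnp25 of the minor spliceosome. Snrnp25 had the largest rise among the called genes of that list, from 14.8 and 19.9999 to 45.5 and 81.0 (a log2 change of 1.76, SE 0.40, limma adjusted p = 0.0448). Luc7l, another U1-associated protein, fell from 150 and 120 to 40.4 and 30.1 (-1.91, SE 0.29, limma adjusted p = 0.0257), and was no longer past the threshold with FPKM as deposited (-0.98, adjusted p = 0.0667). Txnl4a, a small U5 protein, fell as well (-1.32) but was not past the threshold under quantile normalization (-0.94) or with FPKM as deposited (-0.39). Snrnp70, the U1 70K protein, lay at 219 and 224 against 144 and 81.1 and did not pass (-1.03, SE 0.34, limma adjusted p = 0.0953, and -0.09 with FPKM as deposited).

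In the remaining roles calls were few (background 9.85% higher and 8.27% lower). Lsm3, part of the ring that binds U6 RNA and 1 of 10 Lsm genes listed, rose from 13.01 and 19.1 to 133 and 60.0 (a log2 change of 2.43, SE 0.48, limma adjusted p = 0.0359). Of 28 splice site and regulatory factors 1 rose and 2 fell. Nono, a paraspeckle protein, rose from 46.0 and 49.8 to 161 and 110 (1.46, SE 0.29, limma adjusted p = 0.0380). Sugp1, a partner of SF3B1 in human cells, fell from 35.9 and 49.0 to 9.11 and 9.09 (-2.09, SE 0.32, limma adjusted p = 0.0259). Srrm2, a scaffold of nuclear speckles, was the other that fell (-1.50), a call not made under quantile normalization (-1.04) or with FPKM as deposited (-0.57). U2af1, the reader of the 3′ splice site, lay at 216 and 220 against 159 and 92.4 (-0.84, SE 0.33, limma adjusted p = 0.131, and 0.09 with FPKM as deposited). Dhx16, a helicase that activates the spliceosome, was the single call among 33 catalytic and disassembly factors, and fell from 74.5 and 95.1 to 7.19 and 13.6 (-2.96, SE 0.40, limma adjusted p = 0.0219). Of 14 hnRNP proteins under other symbols Pcbp3 rose, from 0.944 and 0.958 to 24.7 and 13.8 (3.32, SE 0.46, limma adjusted p = 0.0226). Like Srsf12, it reached the limit for testing only through the tumours. Ptbp1, hnRNP I, lay at 45.8 and 56.6 against 52.6 and 61.3 (0.16, SE 0.27, limma adjusted p = 0.699). Its neural relative Ptbp2 lay at 10.6 and 5.78 against 32.6 and 7.84 (0.96, SE 0.74, limma adjusted p = 0.377). In the exon junction complex (9 genes), the SR protein kinases and importer (8) and Sm ring assembly (16) limma called 0 genes. The kinases Srpk1 and Clk1, which phosphorylate SR proteins, overlapped between the groups. Srpk1 lay at 22.7 and 40.0 against 27.7 and 17.9 (-0.42, SE 0.42, limma adjusted p = 0.490, and 0.49 with FPKM as deposited). Clk1 lay at 98.5 and 69.5 against 73.6 and 37.2 (-0.65, SE 0.42, limma adjusted p = 0.302, and 0.28 with FPKM as deposited). Prmt5, which methylates Sm proteins, lay at 14.5 and 13.2 against 16.3 and 19.1 (0.33, SE 0.32, limma adjusted p = 0.471).

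Annotation added what the names did not use. The 52 genes lie on 18 chromosomes, and 15 overlap an annotated gene on the opposite strand in GENCODE M21. A transcript marked for nonsense-mediated decay is annotated in 9 of the 11 SR protein genes (81.8%), 10 of 20 hnRNP genes, 4 of 12 Sm and other Snrp genes and 1 of 9 SF3 genes, compared with 28.5% of 12171 protein-coding genes tested. The values here are sums over all transcripts of a gene, so productive mRNA and mRNA bound for decay are not separated.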

How the data were processed

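The authors deposited 1 Cufflinks gene table per library, with FPKM and confidence bounds for 24883 rows. Per the submitters' processing notes the tools were TopHat2 2.0.8, Cufflinks and Cuffdiff 2.1.1 and Trim Galore, on mm10 (GRCm38). The sources used here give no annotation, strand setting or scaling between libraries. Names turned into dates (27 rows) were left out and rows were summed by name. Start positions, 1 below RefSeq in 14225 of 23143 matched genes, were raised by 1. Implied fragments take the interval as 2 Poisson standard deviations on each side, cover counting error only and are too low where isoforms widen it.

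From there, libraries were divided by median-of-ratios factors (0.793, 0.689, 1.34 and 1.50; a log2 shift of 0.94 between groups). log2(scaled FPKM + 1) was tested for 13162 genes by limma 3.58.1 (R 4.3.3) with intensity trend, two-sided, tumour minus normal, Benjamini-Hochberg adjusted. On simulated data for this comparison (13162 genes) it recovered 2% of changes of 2 on the log2 scale and 97% of changes of 6 where 200 genes changed, and 74.5% and 99.8% where 3000 did. The simulation raised low genes to a set minimum level, so these rates do not describe genes as low as Srsf12. Fold changes on this scale understate low genes. An exact permutation test of 2 against 2 cannot go below 0.333. All members are named. Full statistics went to members called, the 2 most abundant and the extremes of fold change per family, and 9 well known genes; of the other splicing genes, to the extremes among those called in each role and 7 well known genes. Members and lists were chosen with earlier results of these data known. Python 3.11.15, pandas 2.3.3 and matplotlib 3.10.9 made the tables and figures. One marker of the luminal list is not reported here and was left out of its sum.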

Additional observations from a re-analysis of the deposited data

How the results depend on the processing

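The counts of calls depended on scaling, filter and variance model. With FPKM as deposited 29 splicing genes were higher and 0 lower, 3681 of all genes higher and 427 lower, 68 other splicing genes higher and 2 lower, and the median log2 fold change of the splicing genes was 1.49. After division by the sum of FPKM, genes above 1% left out, these were 18 and 0, 2537 and 554, 40 and 3, and 1.22. Quantile normalization gave 0 splicing genes lower, and 14 other splicing genes higher and 3 lower. Without the filter on low values 0 splicing genes were higher and 0 lower, 245 of all genes higher and 249 lower, and 0 other splicing genes higher and 1 lower; more genes are then tested. Without the intensity trend 3 splicing genes were higher and 0 lower, and 2 other splicing genes higher and 3 lower. Leaving out 1 library at a time, splicing genes called ran from 0 to 28 higher and 0 to 5 lower, all genes from 0 to 2170 and 0 to 3405, other splicing genes from 0 to 58 and 0 to 21, and the median from 0.42 to 0.88. Apart from the removals and constructions named, the cause was not tested.

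Signs turned positive with FPKM as deposited in Srsf11 (0.30), Hnrnpll (0.58), Srsf3 (0.21), Srsf6 (0.62), Hnrnpul2 (0.52), Sf3b1 (0.42), Snrpd3 (0.82), Snrpc (0.85), Sf3b5 (0.79), Srsf7 (0.28), Srsf9 (0.90) and Snrpa (0.86). Scaled to the FPKM sum they turned in Snrpa (0.58), Hnrnpll (0.30), Hnrnpul2 (0.25), Snrpd3 (0.54), Sf3b1 (0.14), Srsf6 (0.34), Snrpc (0.57), Srsf9 (0.62), Sf3b5 (0.52) and Srsf11 (0.020), and under quantile normalization in Snrpc (0.41), Snrpd3 (0.40), Srsf6 (0.16), Snrpa (0.26), Sf3b5 (0.23) and Srsf9 (0.30). With 1 library left out the sign also turned in genes near 0: Hnrnph3 ran from -0.21 to 1.05, Hnrnpl from -0.024 to 0.30, Hnrnpll from -0.62 to 0.044, Sf3b2 from -0.14 to 0.42, Sf3b5 from -0.43 to 0.081, Snrpa from -0.33 to 0.30, Snrpa1 from -0.52 to 0.72, Snrpc from -0.64 to 0.39, Snrpd3 from -0.57 to 0.43, Srsf10 from -0.42 to 0.72, Srsf2 from -0.088 to 0.51, Srsf6 from -0.63 to 0.092 and Srsf9 from -0.17 to 0.036. None of the 7 called genes changed sign under any alternative run. No paired analysis was possible because the labels give no replicate numbers that tie a tumour to a normal prostate. Short transcripts and Srsf12 are limited by depth.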
